A study of Mus musculus with 36 samples.

Results

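The locus of *Myc* and its neighbour *Pvt1* on mouse chromosome 15 was followed through 3 maps of replication timing (RT), with 2 Mb on either side of the gene pair. Its 2 genes, of 37252 annotated, were chosen by their domain states and by the length of the early domain at *Myc* in these maps, so states and lengths at the locus are given as descriptions. The region covers 221 of the 131957 bins of 20 kb in the genome. Per the study's methods, RT came from Repli-seq: dividing cells were labelled with BrdU for 2 h and sorted into early and late S phase, and the newly made DNA of both fractions was read. RT is the log2 early/late ratio, and the maps give each stretch of the genome 1 of 3 states of it, E (early), M (middle) or L (late).

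The first map is from CH12 cells (clone F3), a mouse B cell lymphoma line, infected with a lentiviral shRNA against LacZ (shLacZ) as the infection control and selected with puromycin. Their labels name IL4, CD40 and TGF beta stimulation. The second is from activated splenic B cells of WT mice, with neither an age nor a sex in the labels and the CH12 culture text repeated there. Each of these maps rests on 4 libraries, 2 early and 2 late, and the other 5 of the 7 groups were not analysed here. The third map, of WT mouse embryonic fibroblasts (MEFs), is tied by the labels to no sample. The states were called on merged replicates. Each condition therefore has 1 map, no value has a replicate error and no test between maps was possible. Read depth and RT values are not in the maps, so how far a bin lies from the next state is unknown. Wilson 95% intervals below cover counting over bins only, and neighbouring bins are not independent.

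MYC is a transcription factor that binds DNA as a partner of MAX and drives growth and cell division, and activated B cells induce it. *Pvt1* is the long noncoding RNA gene next to it. In mouse plasmacytomas and in Burkitt lymphoma, translocations join this locus to an immunoglobulin gene, with breaks made by AID, the enzyme of class switching and somatic hypermutation, whose hotspots include AGCT. Early replication is generally a property of gene-rich, transcribed chromatin, and late replication of gene-poor chromatin.

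*Myc* (ENSMUSG00000022346.8) lies on the forward strand at chr15:61816946-61821929 of mm9 and is 4.98 kb long. *Pvt1* (ENSMUSG00000072566.3, annotated as a lincRNA) lies on the same strand at chr15:61869542-62209651, is 340.1 kb long and begins 47.6 kb past the end of *Myc*. The states were read at the 2 gene starts. The 250 bases before each start are printed because they show what kind of start each state was read at, *Myc* from chr15:61816696-61816945 and *Pvt1* from chr15:61869292-61869541 (NCBIM37, forward strand). Capitals mark matches, on either strand, to 4 short motifs. The GC box was searched as GGGCGG and the TATA box was searched for by the letters TATAAA. The E-box, the site that MYC and MAX bind together, was searched as CACGTG, and the last motif was the AID hotspot AGCT, with no overlap between the matches found.
Myc: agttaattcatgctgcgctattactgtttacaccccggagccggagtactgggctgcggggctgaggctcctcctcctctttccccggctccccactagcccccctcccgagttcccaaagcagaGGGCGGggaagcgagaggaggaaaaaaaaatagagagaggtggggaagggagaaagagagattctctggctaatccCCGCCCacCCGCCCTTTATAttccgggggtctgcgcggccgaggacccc
Pvt1: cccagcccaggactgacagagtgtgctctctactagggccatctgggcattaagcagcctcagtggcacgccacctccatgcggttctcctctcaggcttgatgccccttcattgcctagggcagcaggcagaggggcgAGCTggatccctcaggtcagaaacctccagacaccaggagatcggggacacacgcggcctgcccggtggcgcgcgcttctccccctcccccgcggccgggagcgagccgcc
The *Myc* stretch holds 3 GC box matches, first bases at -125, -49 and -41 counted from the start, and 1 TATAAA match on the reverse strand at -35. Of 22345 stretches of this length before protein-coding genes, 39.6% hold a GC box and 12.3% TATAAA. The *Pvt1* stretch holds 1 AGCT, at -111, as do 68.6% of these stretches at some position, and neither GC box nor TATAAA letters. CACGTG is in neither stretch and in 6.52% of all. Both stretches are GC-rich, at 60.4% for *Myc* and 66.8% for *Pvt1* against a median of 54% over protein-coding genes. In the first 2000 bases after the start, both genes hold 12 AGCT motifs, and 76.6% of 22340 protein-coding genes hold no more, with a median of 10.

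*Myc* was E in all 3 maps, and so were both bins it touches and its 4 merged exons. Among all protein-coding gene starts, 43.9% were E in all 3 maps, so the shared state of *Myc* is common. *Pvt1* was not E throughout. In CH12 cells its start was M, and 16 of its 18 bins and 10 of its 14 merged exons were M, with the 3' end of the gene E. In primary B cells and MEFs all 18 bins and all 14 exons of *Pvt1* were E. The CH12 map thus put a change of state between the 2 neighbours that neither other map had. This edge lay 23.1 kb from the *Myc* start, a distance finer than the 300 kb over which RT was smoothed.

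**Figure D1:**
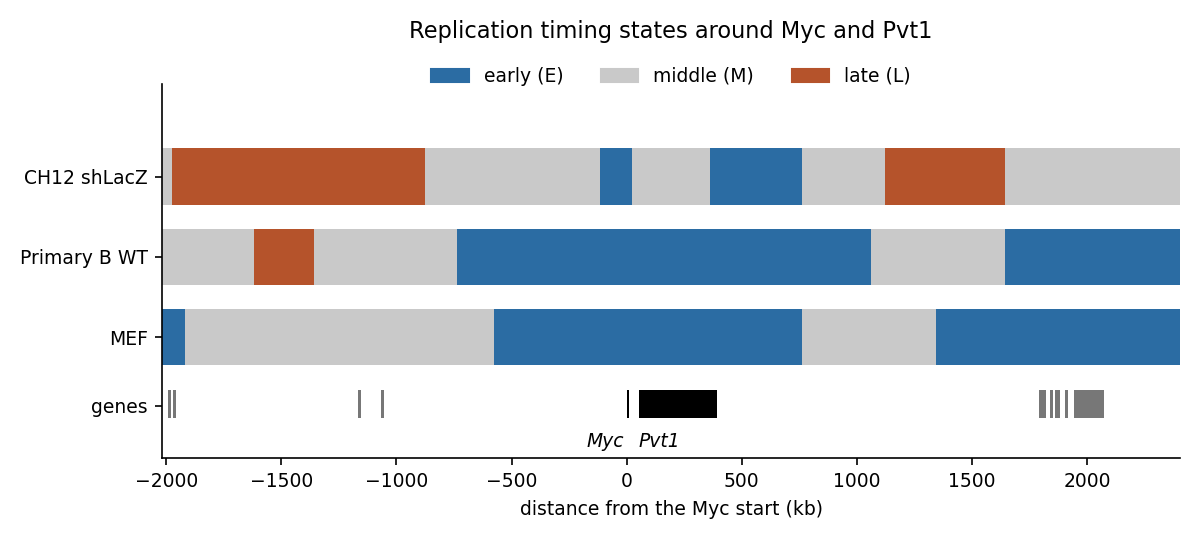
RT states of the 3 maps along the locus, with distance from the *Myc* start in kb on the horizontal axis and 1 row of E, M and L domains per map. Black boxes in the lowest row are *Myc* and *Pvt1*, and grey boxes the other protein-coding genes. *Myc* lies in an E domain in each row, 140 kb long in CH12, 1800 kb in primary B cells and 1340 kb in MEFs.

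In CH12 cells the E domain with *Myc* spanned 7 bins, chr15:61700001-61840000, a length of 140 kb. The *Myc* start lay 117 kb from its left edge and 23.1 kb from its right edge, about 1 bin. An M domain of 340 kb followed (chr15:61840001-62180000), which took in the *Pvt1* start, and then a second E domain of 400 kb (chr15:62180001-62580000), which took in the *Pvt1* end and the stretch beyond it. To the left lay an M domain of 760 kb and an L domain of 1100 kb, and to the right an M domain of 360 kb and an L domain of 520 kb. Early replication in the CH12 map was therefore limited at this locus to a pair of E domains flanked by M.

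In primary B cells a single E domain of 1800 kb (chr15:61080001-62880000) held both genes. The *Myc* start was 737 kb from its left and 1063 kb from its right edge. In MEFs the E domain was 1340 kb long (chr15:61240001-62580000), with 577 kb to the left of the *Myc* start and 763 kb to the right. All 67 bins of the MEF domain were E in primary B cells, and all 27 E bins that CH12 had in the region were E in both other maps. Around *Myc* the E domains of the 3 maps were thus nested, with the E bins of CH12 inside the MEF domain and that inside the primary B domain. Further out, 18 bins L in CH12 and 2 bins M in CH12 were E in MEFs but M in primary B cells.

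The length of the *Myc* domain was set beside those of all E domains of the same map. In CH12, 24 of 555 E domains (4.32%), the *Myc* domain included, were no longer than 140 kb, and the median was 680 kb. In primary B cells, 551 of 660 (83.5%) were no longer than 1800 kb, with a median of 740 kb. In MEFs, 362 of 567 (63.8%) were no longer than 1340 kb, with a median of 960 kb. On chromosome 15 alone, 2 of 20 E domains in CH12, 20 of 24 in primary B cells and 20 of 27 in MEFs were no longer than the *Myc* domain. The *Myc* domain was therefore at the short end in CH12 and in the longer part of the range in the other maps. RT was smoothed over 300 kb before states were called, and 104 CH12 E domains (18.7%) were no longer than that, so the limits of the 140 kb domain are finer than the smoothing. Joining E domains across gaps of up to 300 kb left it at 140 kb, and joining across up to 400 kb, a setting chosen after seeing the data, gave 880 kb.

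**Figure D2:**
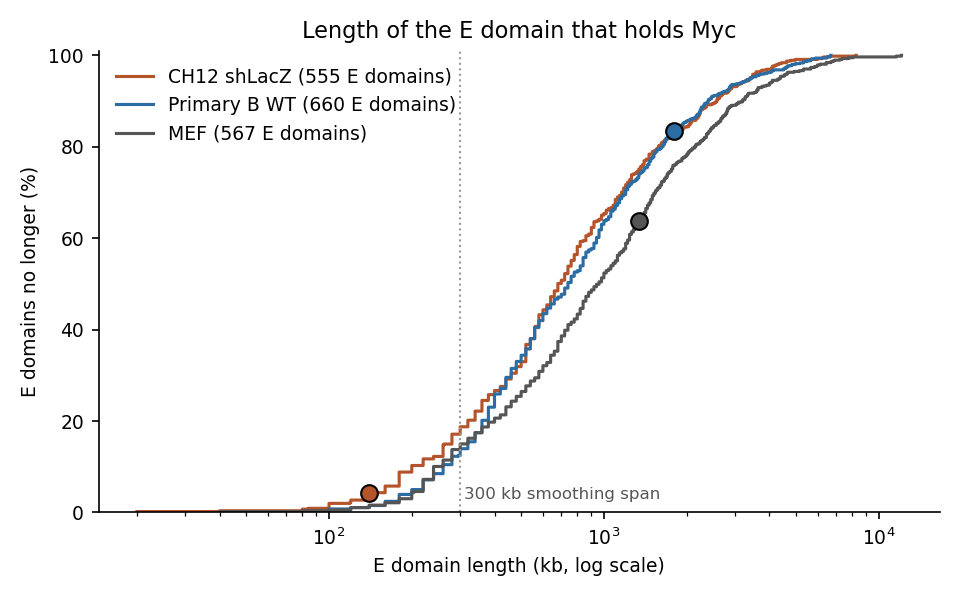
Share of E domains no longer than a given length (%, vertical) against length in kb on a log axis, with 1 curve per map and a circle on each for the domain that holds *Myc*. The circles sit at 140 kb and 4.32% in CH12, 1800 kb and 83.5% in primary B cells, and 1340 kb and 63.8% in MEFs, and the dotted line marks the 300 kb smoothing span.

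Of the 24 CH12 E domains of up to 140 kb, 13 lay wholly in E state in primary B cells, 13 in MEFs and 7, *Myc* among them, in both. Over all 555 CH12 E domains the median share of E bins was 100% in primary B cells and 94.7% in MEFs. Lying wholly in E state in primary B cells was therefore common. Counted by protein-coding gene starts, 8 of the 24 short domains held none, 11 held 1, as the *Myc* domain did, and 5 held more. The M stretch between the E domains at *Myc* and past *Pvt1* was of ordinary size. The CH12 map had 200 M domains lying between E domains, with a median of 400 kb, and 89 of them (44.5%) were no longer than 340 kb.

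Set against CH12, the primary B domain of 1800 kb was E in 27 of its 90 bins, or 30.0% (Wilson 95% interval 21.5 to 40.1%), M in the other 70.0% and L in none. Over all 660 primary B E domains the median share of E bins in CH12 was 74.0%, and 218 (33.0%) had a share of 30.0% or less. Among the 244 domains of at least 1000 kb the median was 89.3%, and 16 (6.56%), the *Myc* domain included, were at or below its share. The domain met 2 separate E domains of CH12, as did 48 of the 660 (7.27%). No E domain of CH12 was met by 195 of them, 410 met 1 and 7 met 3 or more. The MEF domain of 1340 kb was E in CH12 in 40.3% of its bins (29.4 to 52.3%), against a median of 48.0% over 567 MEF E domains, of which 264 (46.6%) were at or below it.

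**Figure D3:**
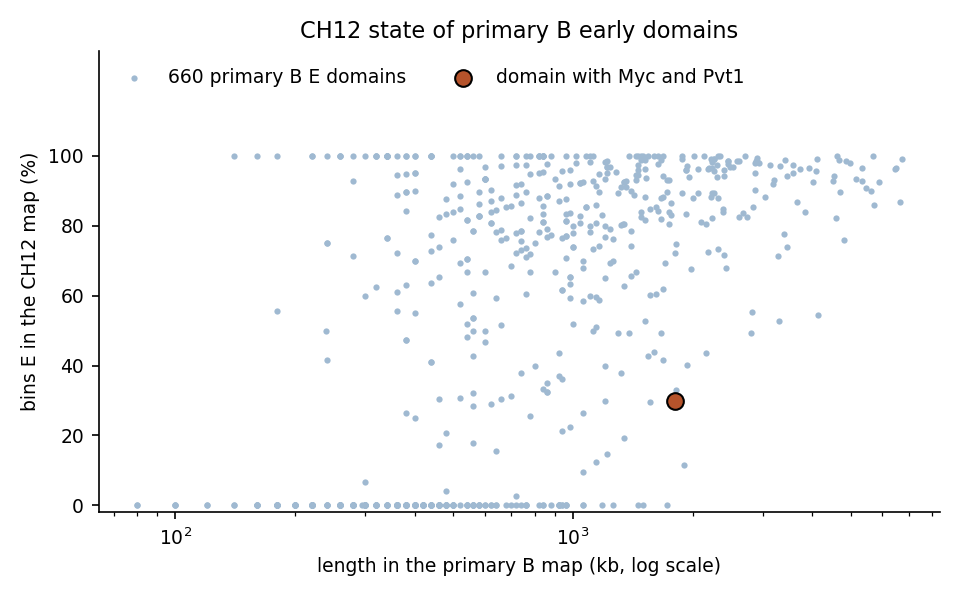
Each point is 1 of the 660 E domains of the primary B map, with its length in kb on a log axis and the share of its bins that were E in CH12 (%) on the vertical axis. The larger circle is the domain with *Myc* and *Pvt1*, at 1800 kb and 30.0%, and most other domains of at least 1000 kb lie above it.

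Over the whole region, 27 of 221 bins (12.2%, Wilson 95% interval 8.53 to 17.2%) were E in CH12, 113 (51.1%, 44.6 to 57.6%) were M and 81 (36.7%, 30.6 to 43.2%) were L. In primary B cells 128 bins (57.9%, 51.3 to 64.2%) were E, 80 (36.2%, 30.1 to 42.7%) M and 13 (5.88%, 3.47 to 9.80%) L. In MEFs 125 bins (56.6%, 50.0 to 62.9%) were E, 96 (43.4%, 37.1 to 50.0%) M and none L. On all chromosomes the E share was 22.7% in CH12, 28.6% in primary B cells and 30.7% in MEFs, and on chromosome 15 it was 24.6%, 30.3% and 36.4%. The region was thus below its chromosome's E share in CH12 and above it in the other maps. The shares depend on the width taken. With 1 Mb on either side CH12 was 22.3% E and 17.4% L and primary B cells 0% L, and with 3 Mb primary B cells were 12.5% L. Its M share in CH12, 51.1%, stood against 23.9% on chromosome 15. The genome-wide shares rest on unlike sets of bins, 131957 in CH12 and MEFs and 128935 in primary B cells. The CH12 map also gave states to bins of unknown sequence. Of its 36202 M bins on all chromosomes, 32409 had at least 50% known bases.

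**Figure D4:**
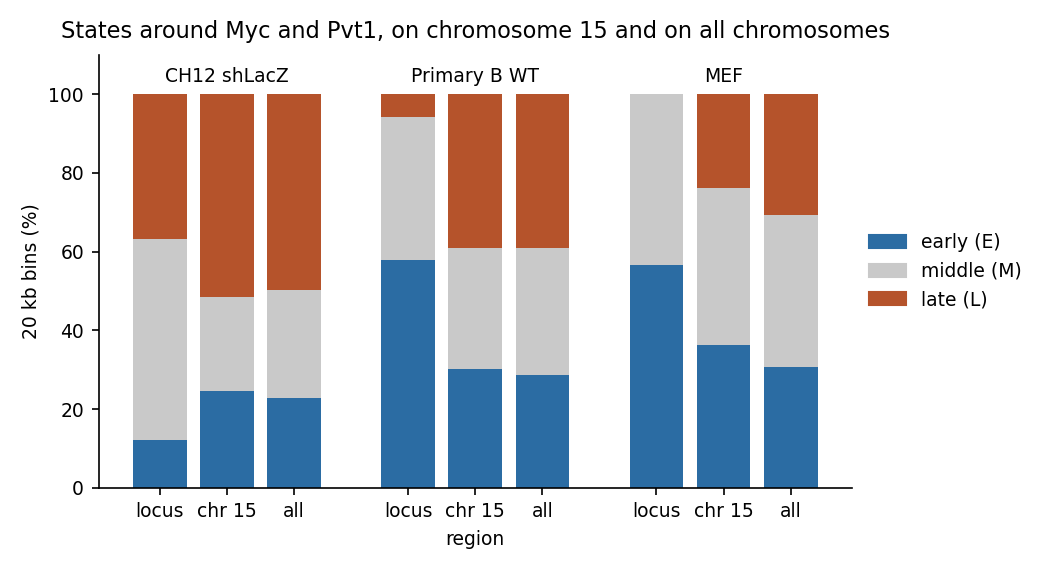
Stacked bars of the share of 20 kb bins (%) in E, M and L state for the region around *Myc* and *Pvt1* (locus), chromosome 15 and all chromosomes, in each map. The E share of the locus is 12.2% in CH12, 57.9% in primary B cells and 56.6% in MEFs, and the MEF bar has no L part.

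CH12 and primary B cells had the same state in 52 of the 221 bins, 23.5% (Wilson 95% interval 18.4 to 29.5%), and the other 169 bins (76.5%) all replicated earlier, by state, in primary B cells. The share with the same state was 37.1% with 3 Mb on either side and 11.1% without bins within 100 kb of a boundary, and no bin was later in primary B cells under either. Over all chromosomes 76.1% of bins had the same state, 20.3% were earlier and 3.62% later in primary B cells. By chromosome, agreement was lowest on chromosome 13 (68.0%) and highest on chromosome 17 (80.8%), with 77.8% on chromosome 15. MEFs stood to CH12 much as primary B cells did, with the same state in 60 bins (27.1%), an earlier one in 161 (72.9%) and a later one in 0. Between primary B cells and MEFs, 165 bins (74.7%, 68.5 to 79.9%) had the same state, against 68.6% over all chromosomes. In MEFs 33 bins were earlier and 23 later than in primary B cells. At this locus the primary B map shared more bins with the fibroblast map than with the other B cell map, whereas over all chromosomes it shared fewer.

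The bins earlier in primary B cells formed 6 unbroken runs. They were 360, 480, 620, 340, 300 and 1400 kb long from left to right, and the last ran past the region's limit to chr15:64340000. Over the genome there were 1967 such runs with a median of 160 kb, and 98.8% were no longer than 1400 kb. For the other runs, from left to right, the share no longer was 77.3, 85.5, 90.7, 75.8 and 73.1%. The run of 620 kb ended at the left edge of the *Myc* domain of CH12 and the run of 340 kb was the M stretch over *Pvt1*.

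Read across the 3 maps, the most frequent pattern was M in CH12 and E in both others, in 78 bins (35.3%), against 3.87% of all bins. These 78 bins were 23 directly left of the CH12 *Myc* domain, 17 in the CH12 M domain with the *Pvt1* start, of which 16 touch the gene, and 38 at the right end. Bins L in CH12 and M in both others numbered 50 (22.6%, against 8.10%). Bins E in all 3 maps numbered 27 (12.2%), below the 18.1% of all bins, and were the 7 at *Myc* and the 20 past the CH12 M stretch. Bins E in primary B cells and M in both other maps numbered 23 (10.4%, against 2.82%) and lay at both ends of the primary B domain. No bin was L in all 3 maps, a pattern of 26.0% of all bins.

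Edges between states fell in different places in the maps. Of 8 edges that CH12 had in the region, 0 lay within 100 kb of an edge of the same kind in primary B cells, and the nearest was 300 kb away. With MEFs it shared 1, the right edge of the second E domain, at chr15:62580000 in both maps to the bin. The left edge of the *Myc* domain was 620 kb further left in primary B cells and 460 kb further left in MEFs. The L to M edge of CH12 at chr15:63460000 fell in the same place as an M to E edge of primary B cells, a step of another kind. The primary B and MEF domains differed by 160 kb at the left edge and 300 kb at the right.

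The region is poor in genes. It held 11 protein-coding starts in 4.39 Mb, 2.50 per Mb against 7.70 on chromosome 15 and 8.47 on all chromosomes. *Myc* was the only one of the 11 that was E in CH12, where 7 were M and 3 L. In primary B cells 7 were E and 4 M, and in MEFs 9 were E and 2 M. Over all 22350 protein-coding genes, 50.6% were E in CH12, 58.0% in primary B cells and 58.6% in MEFs. To the left of *Myc* lay *Gm7713*, M in both B cell maps, and *4933412E24Rik*, *Fam84b* and *A1bg*, which were L in CH12 and M in primary B cells. *Fam84b* and *A1bg*, the latter encoding a plasma glycoprotein, were M in MEFs, and *Gm7713* and *4933412E24Rik* were E. No protein-coding start lay between *A1bg* and *Myc* or between *Myc* and *Gsdmc*, distances of 1064 kb and 1823 kb. To the right, the gasdermin C genes *Gsdmc*, *Gsdmc2*, *Gsdmcl1*, *Gsdmc3* and *Gsdmc4*, whose family includes pore-forming proteins of cell death, and *Fam49b*, a regulator of RAC1, were M in CH12 and E in both other maps. The E state at *Myc* in CH12 was thus shared by no neighbouring protein-coding gene of the region.

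Base composition, which the choice of the locus did not use, did not order the CH12 states at the locus as it did over the genome. Over all chromosomes the mean GC content of CH12 bins was 45.7% ± 3.97 (SD, n = 29975 bins) in E, 42.8% ± 3.37 (SD, n = 32409 bins) in M and 39.4% ± 2.88 (SD, n = 65405 bins) in L. In the region it was 40.5% ± 1.97 (SD, n = 27 bins) in E, 41.8% ± 3.22 (SD, n = 113 bins) in M and 39.6% ± 1.51 (SD, n = 81 bins) in L. The E mean was thus not above the M mean, but they differed by less than the SD of either state. The 7 bins of the CH12 *Myc* domain had a mean GC of 43.1% ± 1.84 (SD), the 17 bins of the M stretch over *Pvt1* 44.5% ± 2.12 (SD), and the 20 bins of the second E domain 39.6% ± 0.997 (SD). The M stretch was thus as GC-rich as both E domains beside it or richer, within the spread of bins for the first and beyond it for the second. The bin with the *Myc* start had 46.2% GC and that with the *Pvt1* start 45.4%, with 206 and 201 of the 221 bins no higher. In the other maps the order of the means in the region was that of the genome. In primary B cells it was 41.7% ± 3.09 (SD, n = 128 bins) in E, 39.7% ± 1.54 (SD, n = 80 bins) in M and 38.9% ± 1.13 (SD, n = 13 bins) in L. In MEFs it was 41.9% ± 3.01 (SD, n = 125 bins) in E and 39.4% ± 1.49 (SD, n = 96 bins) in M. In both maps the E and M means differed by less than the SD of E, though by more than the SD of M. The M and L means of primary B cells differed by less than the SD of either state.

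The density of AGCT, like GC, was lowest in the second E domain, but its highest mean was in the *Myc* domain and not the *Pvt1* stretch. The density was 5.44 ± 0.262 per kb (SD, n = 7 bins) in the CH12 *Myc* domain, 5.34 ± 0.622 (SD, n = 17 bins) in the M stretch over *Pvt1* and 4.62 ± 0.515 (SD, n = 20 bins) in the second E domain. All E bins of CH12 had a mean of 5.29 ± 0.728 per kb (SD, n = 29975 bins), and the whole genome 4.80 ± 0.775 (SD, n = 127789 bins). The *Myc* domain and the *Pvt1* stretch therefore differed in state in CH12 but by less than the spread between bins in this motif.

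**Figure D5:**
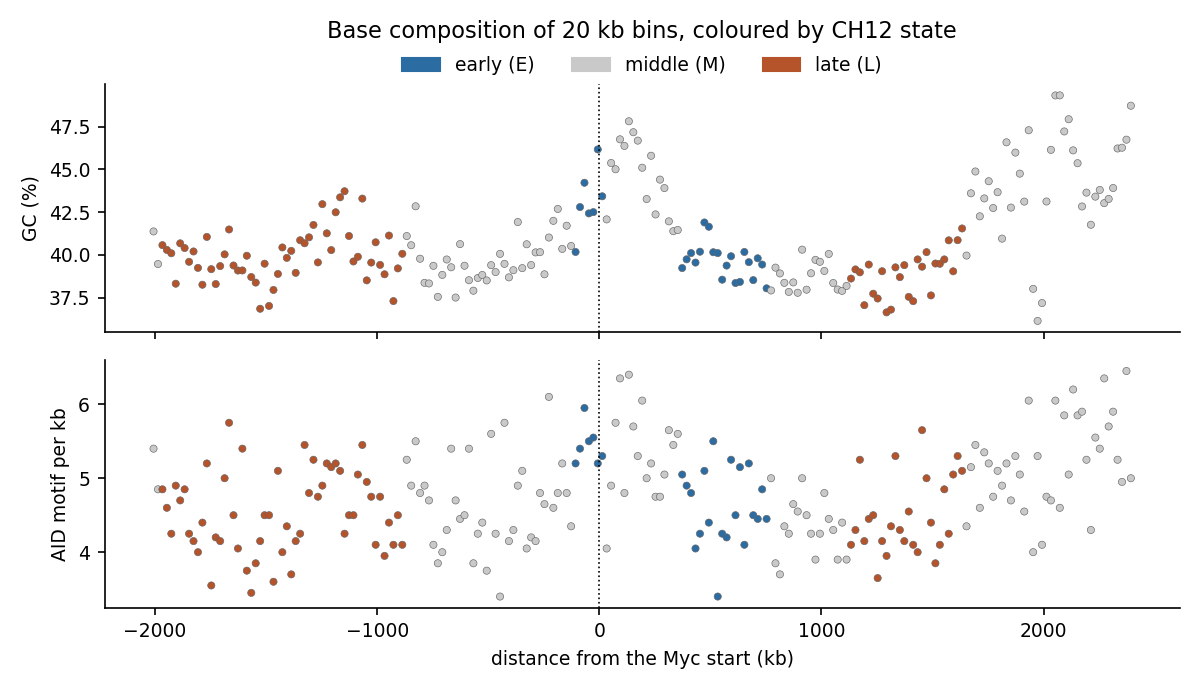
GC content (%, upper panel) and AID motif density (AGCT per kb, lower panel) of each 20 kb bin against distance from the *Myc* start in kb, coloured by CH12 state, with the dotted line at *Myc*. The M bins over *Pvt1*, just right of the line, average 44.5% GC, above the 39.6% of the second E domain further right.

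Genes that work with MYC were read in the same way, beside an E share among all protein-coding genes of 50.6% in CH12, 58.0% in primary B cells and 58.6% in MEFs. The MYC network list has 12 genes, for MAX, its partners of the MXD, MNT and MGA type, the related protein MLX with its partners, and the paralogs of MYC. Of these, 11 were E in each map. The exception was *Mycn*, the paralog best known from neural tumours, which was L in CH12 and M in the other maps. *Max* itself lay in a CH12 E domain of 760 kb and *Mycl1*, the other paralog, in one of 1100 kb, both longer than that of *Myc*. Of 6 genes for MYC cofactors and turnover, 4 were E in each map, not far from the share of all genes, and *Usp28*, which counters MYC degradation, was M in all 3. *Trrap*, a histone acetyltransferase cofactor, was M in both B cell maps and E in MEFs. *Huwe1*, a ubiquitin ligase, was E in both B cell maps and M in MEFs. It lies on the X chromosome, where no bin of any CH12 E domain was E in MEFs, so its M state there is not particular to it.

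Of 12 MYC target genes, 9 were E and 3 M in CH12, and 11 were E and 1 M in each of the other maps. *Eif4e*, which encodes the cap-binding protein of translation, and *Tert*, the telomerase reverse transcriptase, had the pattern of the *Pvt1* start, M in CH12 but E in the other maps. *Npm1*, for nucleophosmin, was M in both B cell maps and E in MEFs. *Ccnd2*, for cyclin D2, was E in both B cell maps and M in MEFs. The lists are small and were not tested.

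Of the partner genes in translocations, *Ighm* and *Igkc* were found in the annotation and *Iglc1* was not. Both were M in CH12 and MEFs, and E in primary B cells. *Myc* and these partners were therefore in different called states in CH12 and MEFs and in the same state in primary B cells. In CH12 both starts lay just outside an E domain. For *Ighm*, which starts at chr12:114660941, that domain ended at chr12:114620000. For *Igkc*, which starts at chr6:70676429, it began at chr6:70720001. Both gaps are shorter than the 300 kb smoothing, so the difference in state from *Myc* in CH12 is finer than the smoothing. The CH12 E domain beside *Ighm* was E in MEFs in 152 of its 153 bins, so the difference in MEFs is also finer than the smoothing there. The CH12 E domain beside *Igkc* was E in MEFs in 84 of its 123 bins, and the distance from *Igkc* to the nearest MEF E bin was not measured.

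Marker genes were read only for their state, since expression is not in the maps. Of 7 B cell markers, 6 were E in CH12, 7 in primary B cells and 5 in MEFs. Of 7 fibroblast markers, 2 were E in each B cell map and 6 in MEFs. Among all protein-coding genes, the E share was 50.6% in CH12, 58.0% in primary B cells and 58.6% in MEFs. *Pax5* and *Ms4a1* (encoding CD20) were E in the B cell maps and M in MEFs, and *Col3a1* and *Prrx1* were L in the B cell maps and E in MEFs.

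The genes most like *Myc* outside the region were sought among 9803 protein-coding genes E in all 3 maps. Likeness was the sum, over CH12 and primary B cells, of the absolute log2 ratio of a gene's E domain length to that of *Myc*, with 1 gene taken per CH12 domain. The closest was *2010111I01Rik* on chromosome 13, at 0.23, with E domains of 140 kb in CH12, 1540 kb in primary B cells and 1660 kb in MEFs. *Traf5*, which encodes a signalling adaptor of TNF receptors, followed at 0.66 with 180, 1460 and 1560 kb in the same order. *Syt6*, for a synaptotagmin, was at 0.73 with 220, 1900 and 3260 kb. *Radil*, for an effector of RAP GTPases, was at 0.93 with 200, 2400 and 2360 kb, and *Gm10293* at 1.00 with 260, 1940 and 2580 kb. The short CH12 and long primary B domains of these 5 genes follow from how they were picked. Only their MEF lengths, 1560 to 3260 kb, were not used in the choice. Other genes start in the same CH12 domains as *Traf5* (*Kcnh1* and *Rcor3*), *Syt6* (*Olfml3* among them) and *Radil* (*Wipi2* among them). Each of these names therefore stands for a domain and not for a trait of that gene alone.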

How the data were processed

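Per the authors' methods and the submitters' processing notes, reads were trimmed (Trim Galore 0.6.5), aligned to mm9 (BWA 0.7.17) and filtered for unique alignments (SAMtools 1.9). Replicates were merged, duplicates removed, log2 early/late ratios taken in 20 kb windows (deepTools), smoothed by loess over 300 kb and segmented into 3 states (hmm_bigwigs). The study's supplementary list of data sets, not its methods, places the MEF reads in another series. The deposited maps hold the start, end and state number of each domain. Merging removes replicate spread and smoothing blurs edges.

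The state numbers are unnamed in the files. The pair of states that never touched was taken as E and L, with E the one with more protein-coding starts per Mb. All 20 chromosomes ended at the NCBIM37 lengths in each map. Genes and sequence came from GENCODE M1 and NCBIM37. Bins with at least 50% known bases were used for composition. A gene took the state of the bin of its start, and edges of 1 kind within 100 kb counted as shared. The genes named are *Myc* and *Pvt1*, each protein-coding gene starting in the region, the lists' genes and the 5 genes most like *Myc*, 1 per CH12 domain. The members and lists were chosen with earlier results of these data known. The 4 checks on simulated maps gave the known answers. Analyses used Python 3.11.15, numpy 2.4.6, scipy 1.17.1 and matplotlib 3.10.9.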

Additional observations from a re-analysis of the deposited data

How the results depend on the processing

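With 1 map per condition, these alternatives change only how the maps were read. Of 126 values under alternatives, 102 kept to the main value within 1 bin for lengths, its Wilson 95% interval for shares, its spread between bins for composition or 1.5 times for counts, and 24 moved. With all bins in place of the start, *Pvt1* was 11.1% E in CH12. Joining CH12 E domains across up to 400 kb, chosen after seeing the data, gave a *Myc* domain of 880 kb. On chromosome 15 alone, 10% of CH12 and 74.1% of MEF E domains were no longer than that of *Myc*. With 1 Mb on either side, CH12 was 22.3% E, 60.3% M and 17.4% L, and primary B cells 74.4% E, 25.6% M and 0% L. With 3 Mb on either side, CH12 was 18.1% E, primary B cells 12.5% L, and MEFs 35.5% M and 2.80% L. Agreement of the B cell maps was 30.6% with 1 Mb, 37.1% with 3 Mb and 11.1% without bins within 100 kb of a boundary, and 0 bins were later in primary B cells under each. The E share of CH12 with 1 Mb or 3 Mb stayed below that of primary B cells. Counting all gene types gave 2 E, 12 M and 7 L starts in CH12, 13 E and 8 M in primary B cells, and 14 E and 7 M in MEFs. No paired analysis was possible because the states were called on merged replicates. The missing RT values and depth limit every statement on size.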
